A study of Mus musculus with 96 samples.

Results

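The libraries described here measure how gene expression in the whole mouse visual cortex changed after 1 h of light, in animals of the line E123 that received a control virus. They were chosen by their labels, and are the 4 light-exposed and the 4 dark-kept libraries of total nuclei of that group, 8 of the 96 libraries of the series. All animals were Igf1-E123 fl/fl and VIP flp/wt: both copies of a set of Igf1 enhancers named E123 were flanked by sites for the recombinase Cre, and 1 copy of the Vip locus drove the recombinase Flp. They were injected in the visual cortex at 55 to 60 days of age with AAV-Syn1-fDIO-mScarlet-KASH-2a-dCre, a virus with the neuronal Syn1 promoter whose cargo needs Flp, so that VIP interneurons received a red nuclear tag and dCre, the inactive form of Cre. By their labels, the light and dark groups therefore share genotype, virus and housing. Animals entered darkness 3 days after injection for 10 to 12 days, and the visual cortex was frozen either in the dark or after 1 h of renewed light. Each library came from 50 to 100 nuclei sorted without selection for the VIP tag, so neurons of all kinds and glia were mixed.

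Light after a long dark period drives synchronous firing in visual cortex. Calcium entry through NMDA receptors and voltage-gated channels activates kinases that phosphorylate CREB and SRF cofactors, and these switch on immediate-early genes, which need no new protein synthesis. Many of these genes encode transcription factors of the Fos, Egr and Nr4a families, which act on later genes such as those for secreted factors and synaptic proteins. Nuclear RNA, as measured here, is rich in unspliced transcripts and reports recent transcription more directly than the RNA of whole cells.

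The 8 libraries held 2917808 to 6188209 counts and 19207 to 22733 detected genes each. A length index was used to describe their quality: coding genes spanning at least 63662 bp were averaged on the log2(CPM + 1) scale, and the average over those spanning at most 10976 bp was subtracted. CPM are counts scaled to the library size. The index was 3.81, 3.48, 2.77 and 2.42 in dark replicates 1 to 4 and 2.47, 2.90, 2.53 and 2.71 in light replicates 1 to 4. Dark replicate 1 had the highest index of the 48 total-nuclei libraries, and dark replicates 1 and 2 stood above all 4 light libraries. The group means, 3.12 ± 0.64 (SD, n = 4) and 2.65 ± 0.19 (SD, n = 4), gave p = 0.286 in an exact two-sided permutation test, where the smallest possible p is 0.0286. By their counts of Xist and of 4 genes of the Y chromosome, 7 of 8 libraries were of the labelled sex. The library labelled dark replicate 2 is female by its label but held 6 counts of Xist and 1474 of Y-linked genes. The VIP library labelled dark replicate 2 held 4 and 1282, and the other 7 VIP libraries of E123 control were of the labelled sex. The Fos level of the total library labelled dark replicate 2, 1.48 CPM, lay within the range of the other dark libraries, 0.264 to 4.05 CPM. Neither the sex counts nor this level tell whether its line, virus and light state are as labelled. Libraries outside E123 control were not compared with their sex labels here. Calls lost without this total library are given beside most genes. With sex read from the counts of Xist and Y-linked genes as a covariate, an alternative chosen after seeing the data, all 79 genes described below passed, among 107.

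**Figure D1:**
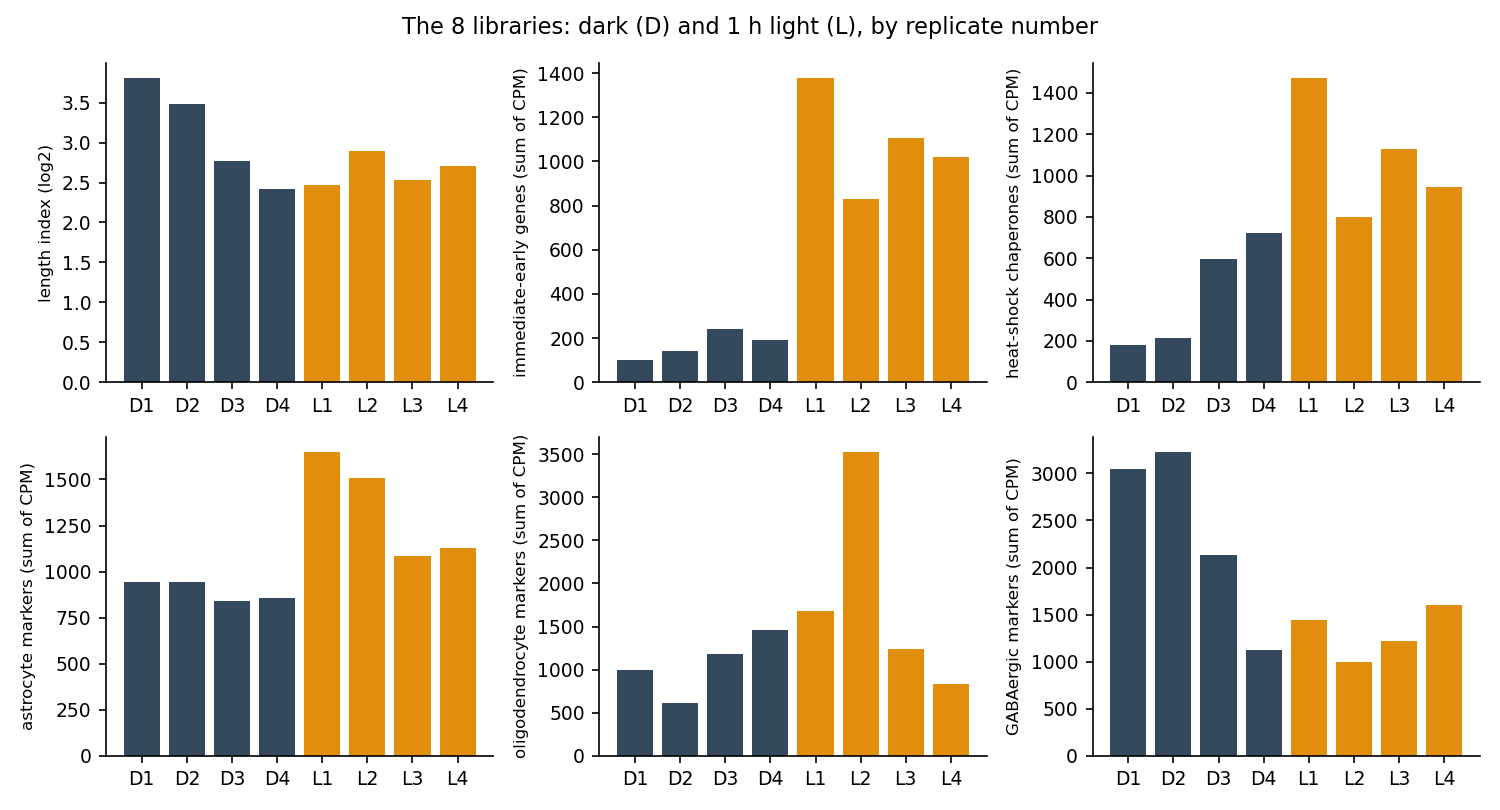
Values of each of the 8 libraries (D, dark; L, light, by replicate number): the length index on a log2 scale and the summed CPM of 5 gene lists. The immediate-early sum was 98.9 to 241 in the dark and 831 to 1377 after light, while the heat-shock, astrocyte, oligodendrocyte and GABAergic sums also moved with replicates or with light.

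After 1 h of light, 13 rapid immediate-early genes and 9 activity-regulated effector genes were among those that rose, with 2 MAPK regulators, 2 heat-shock chaperones and the salt-inducible kinase gene Sik2. A further 42 raised genes belonged to none of the lists examined. In edgeR's quasi-likelihood test with Benjamini-Hochberg adjustment, 79 of 21213 genes tested (0.372%) passed at an adjusted p under 0.05. Of these, 69 (0.325%) were higher after light, by 1.78- to 495-fold with a median of 3.39-fold. The other 10 (0.0471%) were lower, by 1.68- to 6.33-fold with a median of 2.53-fold. In 68 of the 69 raised genes all light libraries lay above all dark ones, against 3.12% of all genes. The same separation downwards held for 9 of the 10 lowered genes, against 2.77% of all genes. Both sets were called on these same 8 libraries, so their separation follows largely from that selection and adds no support of its own. Lowered genes were long, with a median span of 110127 bp, against 17476 bp for raised genes and 18390 bp for all genes tested. This length difference runs in the direction of the higher length index of dark replicates 1 and 2, and with the index as a covariate 190 genes passed, 168 higher and 22 lower, 70 of them among the 79.

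**Figure D2:**
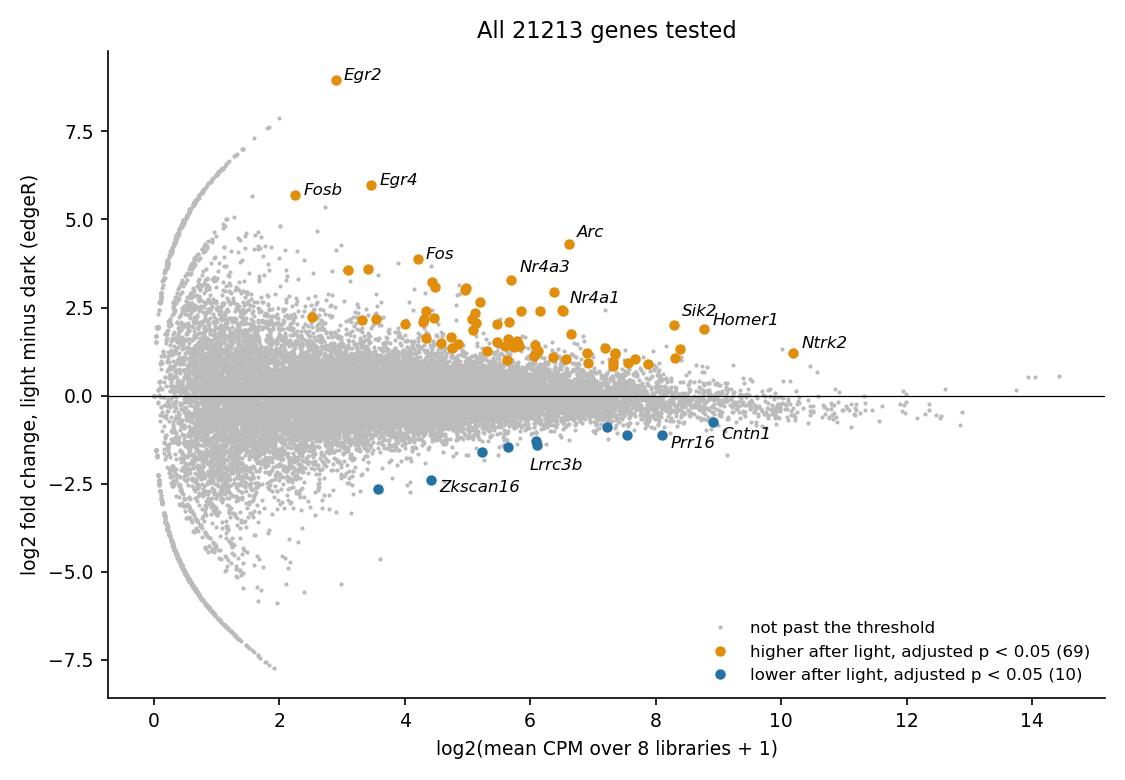
Log2 fold change (light minus dark, edgeR) of the 21213 genes tested against log2 of their mean CPM over the 8 libraries plus 1. The 69 raised genes (orange) span a wide range of levels, but none lies at the lowest or the highest. The 10 lowered genes (blue) lie mostly among middle and high levels. The arcs of grey points at the left are genes with counts in 1 group alone.

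The size of the set of called genes rested on which dark libraries were used. Without dark replicate 1, 37 genes passed, and without the library labelled dark replicate 2, 24 passed, while leaving out dark replicate 4 gave 145. Leaving out light replicate 1 gave 49, and the other single omissions gave 58 to 75 genes, all within 1.5 times the 79. A core of 18 genes passed in each of the 8 fits that left out 1 library, among them Nr4a1, Nr4a2, Nr4a3, Egr1, Fosl2, Arc, Homer1, Pcsk1, Sik2, Ntrk2, Dusp14, Nefm, Nefl, Hsph1, Baiap2, Ppp2r1b and Akap7. Without dark replicates 1 and 2 together, 7 genes passed, of which 6 were among the 79: Nr4a1, Pcsk1, Sik2, Homer1, Ntrk2 and the predicted gene Gm21954. That fit kept only 2 dark libraries, so the lower count cannot be told apart from the loss of libraries. In it 0 of the 79 reversed direction. The Gm21954 call was lost in 6 of the 8 single omissions (adjusted p of 0.0643 to 0.142). Dclk1 overlaps Gm21954 on the other strand and held more counts, 42367 against 5483.

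Rapid immediate-early genes, most of which encode transcription factors, had the most calls of the lists. Of 33 immediate-early genes listed, 31 were tested, and 13 were higher and none lower after light, against 0.325% and 0.0471% of all genes. Their median log2 fold change was 2.61, against -0.01 over all genes tested. Altogether 30 of the 31 had a positive log2 change, against 48.8% of all genes. In 20 all light libraries lay above all dark ones, against 3.12% of all genes. Without the library labelled dark replicate 2, 7 of the list passed, without dark replicate 1, 9 passed, and without both 1 passed. Klf4 and Maff had too few counts to be tested.

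The 3 Nr4a genes, which encode orphan nuclear receptors that bind DNA without a known hormone, all rose. Their upstream sequences and that of Fosl2 are printed because these genes had the smallest p among the immediate-early genes eligible for printing. Some genes of smaller p were left out by their position in the genome or, as Arc, for want of a matched RefSeq promoter. The sequences were therefore not chosen as a contrast between families. Each is the 250 bases before the transcription start from RefSeq (GRCm38.p6), 5′ to 3′ on the gene's strand. Nr4a1 lies at chr15:101266596-101266845 on the plus strand, Nr4a2 at chr2:57124004-57124253 on the minus strand, Nr4a3 at chr4:48045055-48045304 and Fosl2 at chr5:32136222-32136471, both on the plus strand. Capitals mark TGACG on either strand, the core of the CREB binding site.
Nr4a1: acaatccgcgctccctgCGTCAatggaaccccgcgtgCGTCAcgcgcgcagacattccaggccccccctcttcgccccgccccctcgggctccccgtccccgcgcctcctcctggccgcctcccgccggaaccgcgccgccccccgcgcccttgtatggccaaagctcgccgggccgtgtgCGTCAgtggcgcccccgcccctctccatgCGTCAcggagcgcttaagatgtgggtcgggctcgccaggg
Nr4a2: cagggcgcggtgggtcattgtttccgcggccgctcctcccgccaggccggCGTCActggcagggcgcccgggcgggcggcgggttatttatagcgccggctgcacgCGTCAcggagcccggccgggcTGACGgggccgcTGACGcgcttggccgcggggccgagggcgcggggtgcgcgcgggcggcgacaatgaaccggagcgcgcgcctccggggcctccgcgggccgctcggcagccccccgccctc
Nr4a3: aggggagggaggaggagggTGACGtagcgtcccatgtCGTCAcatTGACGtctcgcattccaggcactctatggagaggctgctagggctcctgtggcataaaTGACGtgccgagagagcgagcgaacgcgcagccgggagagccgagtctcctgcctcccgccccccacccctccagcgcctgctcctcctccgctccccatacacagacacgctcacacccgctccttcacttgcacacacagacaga
Fosl2: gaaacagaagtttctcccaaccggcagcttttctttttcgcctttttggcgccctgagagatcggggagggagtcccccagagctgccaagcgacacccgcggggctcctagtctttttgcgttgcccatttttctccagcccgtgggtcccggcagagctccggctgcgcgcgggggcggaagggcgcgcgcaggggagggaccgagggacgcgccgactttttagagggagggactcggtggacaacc

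Each of the 3 Nr4a windows held 4 copies of TGACG, and the Fosl2 window held none. In the wider windows described next, 12 of 17 immediate-early genes examined held TGACG at any of their RefSeq starts, so Fosl2 was among the minority without it. This count is per gene and is not comparable with the shares of promoters given below. Counting back from the start, the copies began at -233, -213, -69 and -40 for Nr4a1, at -200, -144, -123 and -111 for Nr4a2, and at -231, -213, -205 and -147 for Nr4a3. In windows that also take in the first 50 transcribed bases, TGACG was present on either strand in 20.9% of all 32544 RefSeq promoters, in 27.8% of the 16842 promoters of tested genes and in 45.1% of the 71 promoters of raised genes. The full 8-base site TGACGTCA, which contains TGACG, was in 1.8%, 2.67% and 4.23% of the same sets, and the AP-1 site TGANTCA in 7.79%, 5.64% and 4.23%. The EGR site GCGTGGGCG was in 0.618%, 1.05% and 0.0%, and the CArG box bound by SRF in 1.64%, 1.32% and 5.63%. RefSeq promoters were matched for 49 of the 69 raised genes. A match describes letters in a window and not a bound site.

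Nr4a1 had 24.5, 32.6, 27.3 and 26.9 CPM in dark replicates 1 to 4 and 181, 127, 148 and 149 CPM in light replicates 1 to 4. The dark libraries were closely alike and all light libraries lay far above them, a 5.42-fold rise (log2 2.44 ± 0.32 SE, adjusted p = 1.37e-05). It had the smallest p of all genes tested. Nr4a2 had 3.69, 4.63, 6.07 and 12.2 CPM in the dark and 64.5, 32.4, 53.2 and 65.3 CPM after light. Its highest dark library, replicate 4, stayed well below its lowest light library, replicate 2, and the rise passed (log2 3.00 ± 0.49 SE, adjusted p = 0.000468). Nr4a3 had 2.37, 9.07, 15.9 and 10.3 CPM in the dark and 74.1, 78.6, 104 and 113 CPM after light, again without overlap, a 9.73-fold rise (log2 3.28 ± 0.59 SE, adjusted p = 0.00235).

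Among the AP-1 genes, whose Fos and Jun products pair to bind DNA, Fos had 0.264, 1.48, 4.05 and 2.95 CPM in the dark and 37.8, 20.7, 42.7 and 29.6 CPM after light. The groups were far apart, with a 14.7-fold rise (log2 3.88 ± 0.79 SE, adjusted p = 0.00954), although the adjusted p was 0.0685 without dark replicate 1 and 0.0753 without the library labelled dark replicate 2. Fosl2, with 2.90, 9.81, 10.9 and 2.77 CPM in the dark and 69.8, 40.4, 41.6 and 66.6 CPM after light, rose 8.26-fold (log2 3.05 ± 0.58 SE, adjusted p = 0.0045). Dark replicates 2 and 3 were the high dark libraries and lay well below every light one. Fosb held 2 counts in the 4 dark libraries and had 5.60 to 9.09 CPM in the 4 light ones, a ratio of 68.8 with an exact 95% interval of 18.6 to 574 that covers counting error only (adjusted p = 0.0363). The Fosb call was lost on leaving out any of 6 libraries: adjusted p was 0.188, 0.117 and 0.0732 without dark replicates 2, 3 and 4, and 0.0737, 0.0528 and 0.0702 without light replicates 1, 2 and 4.

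Junb had 3.69, 4.26, 7.84 and 8.30 CPM in the dark and 53.8, 16.5, 38.5 and 20.5 CPM after light. Light replicates 2 and 4 were the low ones of their group but still above the dark range, and the rise was 5.33-fold (log2 2.41 ± 0.51 SE, adjusted p = 0.00954). Its adjusted p was 0.0769 and 0.0795 without dark replicates 1 and 2 and 0.083 without light replicate 1. Junb shares its locus with Prdx2 on the other strand, and the library kit named in the labels, Nextera XT, does not mark strand. Jun, by contrast, had a log2 change of 1.13 ± 0.64 SE (adjusted p = 0.559), with overlapping groups. Fosl1 had a log2 change of -0.36 ± 1.37 SE (adjusted p = 0.976), the only negative value of the list.

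All 4 Egr genes, zinc finger factors that recognise GC-rich sites, rose. Egr1 had 4.75, 15.2, 35.4 and 21.2 CPM in the dark and 189, 112, 165 and 117 CPM after light. The dark libraries themselves spread widely, from replicate 1 to replicate 3, yet the groups did not overlap (7.61-fold, log2 2.93 ± 0.47 SE, adjusted p = 0.000586). Egr3 had 5.54, 14.99, 17.5 and 9.59 CPM in the dark and 55.3, 68.4, 46.5 and 42.7 CPM after light, a 4.47-fold rise (log2 2.16 ± 0.44 SE, adjusted p = 0.00773, and 0.0685 without dark replicate 1). Egr2 was at 0 in all 4 dark libraries and held 226 counts in the light ones, at least 84.3-fold higher when the dark group is set to 3 counts over its 4 libraries (adjusted p = 0.00817, and 0.059 without the library labelled dark replicate 2). Egr4 held 5 counts in the dark, all in replicate 1, and 331 after light (log2 5.97 ± 1.23 SE, adjusted p = 0.00945, and 0.0753 without the library labelled dark replicate 2). Egr2, Egr3, Egr4, Fosb, Jun and Fosl1 were picked for naming after their values were seen.

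Npas4, a neuron-specific factor induced by calcium entry, had 0.792, 0.185, 6.83 and 0 CPM in the dark and 44.0, 15.5, 15.4 and 28.6 CPM after light. Every light library lay above every dark one, with a log2 difference of 3.76 ± 0.93 SE, but the adjusted p was 0.0505, just past the threshold. Dark replicate 3 was the outlying dark library, and without it the log2 difference was 6.36 and passed. Several other members separated in the same way without passing, such as Ccn1 (log2 3.69 ± 1.08 SE, adjusted p = 0.143) and Btg2 (log2 2.24 ± 0.67 SE, adjusted p = 0.142), both also picked after their values were seen.

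**Figure D3:**
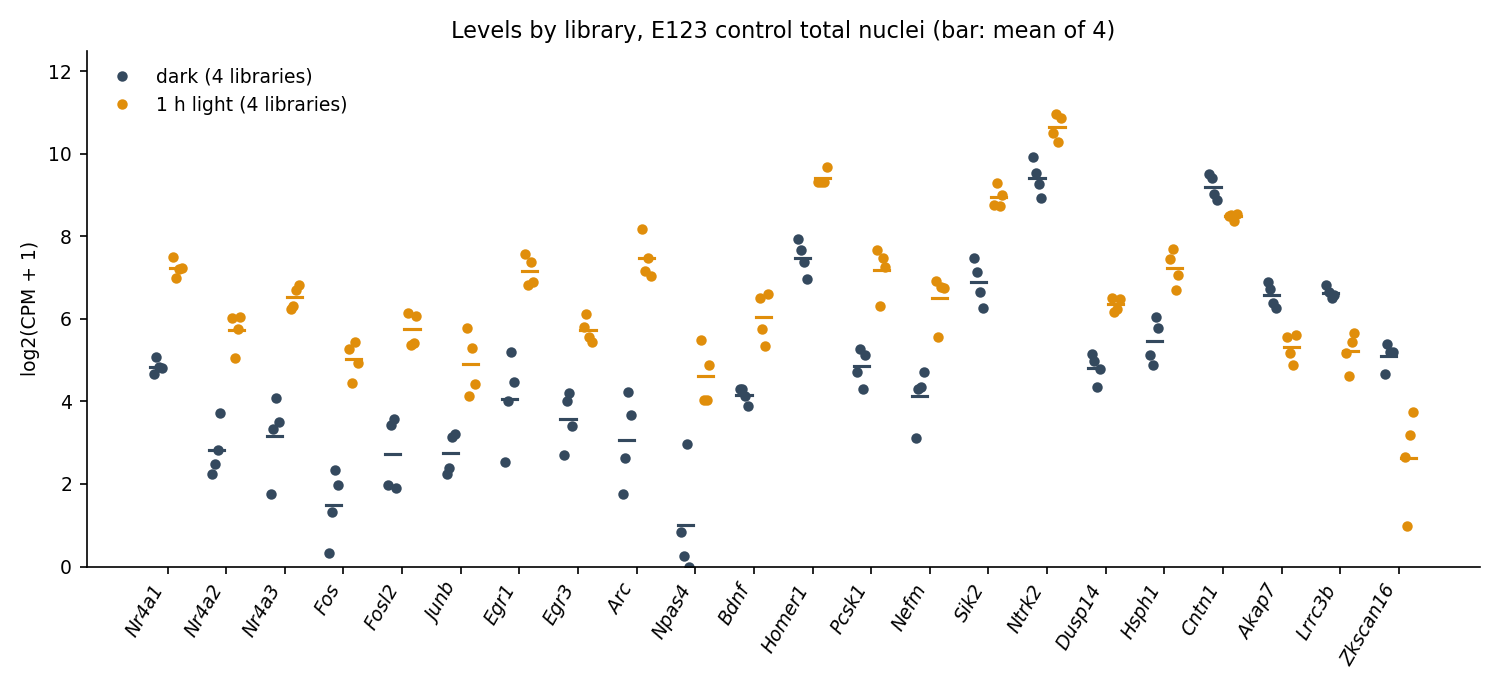
Log2(CPM + 1) of 22 genes in each of the 4 dark (dark blue) and 4 light (orange) libraries of E123 control total nuclei, with the group mean as a bar. The light points lie above the dark points for all genes from Nr4a1 to Hsph1 and below them for the last 4.

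Activity-regulated effector genes encode mainly synaptic and secreted proteins. All 26 listed were tested, and 9 were higher and none lower, against 0.325% and 0.0471% of all genes. Their median log2 change was 1.88, against -0.01 over all genes, and in 15 all light libraries lay above all dark ones, against 3.12% of all genes. The 9 were Bdnf, Homer1, Pcsk1, Nrn1, Nptx2, Vgf, Tiparp, Arl5b and Nefm, and the other 17 did not pass. Without the library labelled dark replicate 2, 3 of the list passed, and without dark replicate 1, 4 passed.

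Arc, counted with the immediate-early genes, whose protein drives removal of AMPA receptors from synapses, had 2.37, 5.18, 17.7 and 11.8 CPM in the dark and 288, 142, 178 and 132 CPM after light. It showed the largest rise among the genes that passed in every single-library omission, 19.9-fold (log2 4.32 ± 0.64 SE, adjusted p = 0.000311). Homer1, whose short activity-induced form loosens the postsynaptic scaffold, had 246, 204, 164 and 123.2 CPM in the dark and 637, 642, 637 and 822 CPM after light. The 3 lower light libraries were almost equal and all were clear of the dark range (3.72-fold, log2 1.89 ± 0.34 SE, adjusted p = 0.00235). The counts do not separate its isoforms. The predicted transcript Gm47088 lies inside Homer1 on the same strand and was also called (log2 3.09 ± 0.72 SE, adjusted p = 0.0289), so its reads cannot be told apart from those of Homer1. That call was lost without any of dark replicates 1 to 4 (adjusted p = 0.161, 0.127, 0.0577 and 0.0585) or light replicates 1 and 4 (adjusted p = 0.0507 and 0.0897).

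Among secreted factors and their processing enzymes, Pcsk1, a convertase that cuts prohormones, had 25.3, 37.6, 18.7 and 33.8 CPM in the dark and 204, 78.6, 177 and 153 CPM after light. Light replicate 2 was the low one of its group but lay well above the highest dark library, and the rise was 5.29-fold (log2 2.40 ± 0.36 SE, adjusted p = 0.000208). Bdnf, the neurotrophin that signals through TrkB, had 18.7, 18.9, 16.4 and 13.8 CPM in the dark and 89.4, 52.8, 39.5 and 96.9 CPM after light. The dark values were tight and the light values ranged more widely, without overlap (4.10-fold, log2 2.04 ± 0.44 SE, adjusted p = 0.0145). The Bdnf call was not kept without dark replicates 1, 2 or 3 (adjusted p = 0.0627, 0.0669 and 0.0559) or light replicates 1 or 4 (0.0655 and 0.0692), with log2 values of 1.84 to 2.10 in those fits. Nrn1, a membrane-anchored growth factor, rose 3.04-fold from a dark range of 15.2 to 37.4 CPM to a light range of 65.1 to 83.8 CPM (log2 1.60 ± 0.32 SE, adjusted p = 0.00755, and 0.0669 without the library labelled dark replicate 2). Fars2 overlaps Nrn1 on the other strand and held more counts than Nrn1.

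Nptx2 and Vgf encode a secreted synaptic pentraxin and a neuropeptide precursor. Nptx2 went from 1.30 to 7.01 CPM in the dark to 16.3 to 51.8 CPM after light (log2 3.24 ± 0.73 SE, adjusted p = 0.0225), and Vgf from 1.84 to 5.57 CPM to 12.1 to 17.8 CPM (log2 2.15 ± 0.47 SE, adjusted p = 0.0158). Each was called only with most libraries in place. The Nptx2 adjusted p was 0.132, 0.145 and 0.0688 without dark replicates 1, 2 and 3 and 0.0663 and 0.0671 without light replicates 1 and 4. That of Vgf was 0.0854, 0.0908 and 0.0542 without dark replicates 1, 2 and 4 and 0.055 without light replicate 4. Tiparp, a mono-ADP-ribosyltransferase, rose from 4.26 to 18.2 CPM in the dark to 56.3 to 73.5 CPM after light (log2 2.66 ± 0.56 SE, adjusted p = 0.0127, and 0.0796 and 0.104 without dark replicates 1 and 2). Nptx2, Vgf and Tiparp were named after their values were seen.

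Ntrk2 and Sik2, a receptor and a kinase gene, were among those called in every omission of 1 library. Ntrk2, which encodes TrkB, the receptor for the Bdnf product, had 963, 743, 622 and 486 CPM in the dark and 1455, 1984, 1253 and 1872 CPM after light. Dark replicates 1 and 2 were the high dark libraries, and all 4 light libraries lay above them (2.33-fold, log2 1.22 ± 0.22 SE, adjusted p = 0.00235). Sik2, a salt-inducible kinase that holds CREB coactivators out of the nucleus, had 179, 139, 100 and 75.8 CPM in the dark and 432, 624, 426 and 516 CPM after light (4.05-fold, log2 2.02 ± 0.31 SE, adjusted p = 0.000311). Its neighbour Ppp2r1b, a scaffold subunit of the phosphatase PP2A, overlaps it on the other strand and also rose (log2 2.06 ± 0.41 SE, adjusted p = 0.00763). Reads in the shared stretch cannot be assigned to one of the pair.

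Of 11 genes of the CREB family, its coactivators and salt-inducible kinases, only Sik2 passed, against 0.325% of all genes for a rise, and the list's median log2 change was 0.20. Creb1 itself had a log2 difference of -0.35 ± 0.32 SE (adjusted p = 0.791). Sik1, a kinase induced by cAMP, went from at most 2.11 CPM in each dark library to 9.45 to 17.9 CPM after light but did not pass (log2 4.27 ± 1.33 SE, adjusted p = 0.166). Creb1 and Sik1 were named after their values were seen.

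Of 16 MAPK phosphatases and feedback regulators, 2 passed, both higher, against 0.325% of all genes, with a list median of 0.60. Only 1 of the list passed without dark replicate 1 or without the library labelled dark replicate 2. Dusp14, a phosphatase that inactivates MAP kinases, had 34.6, 30.7, 19.5 and 26.4 CPM in the dark and 89.9, 71.0, 74.2 and 89.2 CPM after light. Both groups were tight and well separated (2.91-fold, log2 1.54 ± 0.29 SE, adjusted p = 0.0045). Spry2, an inhibitor of receptor tyrosine kinase signalling, rose 4.49-fold from 1.85 to 12.2 CPM in the dark to 19.9 to 35.3 CPM after light (log2 2.17 ± 0.45 SE, adjusted p = 0.00954). The Spry2 adjusted p was 0.06 without dark replicate 1 and 0.0908 without the library labelled dark replicate 2. Dusp1 and Dusp6, named after their values were seen, lay higher in all light libraries without passing, with log2 differences of 1.77 ± 0.48 SE (adjusted p = 0.0899) and 2.58 ± 0.69 SE (adjusted p = 0.0878).

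Nefm and Nefl, neurofilament genes that encode structural proteins of axons, both rose. Nefm had 7.65, 18.9, 19.5 and 25.5 CPM in the dark and 119, 46.0, 109 and 107 CPM after light. Light replicate 2 stood apart from the other 3 light libraries but was still above the dark range (5.29-fold, log2 2.40 ± 0.39 SE, adjusted p = 0.000468). Nefl had 4.22, 11.3, 10.9 and 17.7 CPM in the dark and 74.6, 38.9, 51.1 and 62.6 CPM after light (5.10-fold, log2 2.35 ± 0.42 SE, adjusted p = 0.00235). The annotated span of Nefl lies wholly inside that of Nefm, on the opposite strand. Without strand, reads within Nefl could belong to either gene, so the 2 rises are not separately established.

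Of 13 heat-shock chaperone genes listed, whose products refold proteins, 11 were tested and 2 passed, both higher, against 0.325% of all genes. All 11 had a positive log2 change, against 48.8% of all genes, with a median of 1.56. In 5 all light libraries lay above all dark ones, against 3.12% of all genes. Only 1 passed without the library labelled dark replicate 2 or without light replicate 1. Hsph1, a co-chaperone of Hsp70, had 33.8, 28.7, 65.3 and 53.9 CPM in the dark and 174, 205, 104 and 132 CPM after light (3.39-fold, log2 1.76 ± 0.30 SE, adjusted p = 0.00106). Dnajb1, another Hsp70 partner, had 8.18, 1.48, 12.4 and 8.12 CPM in the dark and 58.6, 24.9, 27.6 and 27.3 CPM after light (4.62-fold, log2 2.21 ± 0.46 SE, adjusted p = 0.00954). Its call was lost without the library labelled dark replicate 2 (adjusted p = 0.0875) and without light replicate 1 (0.0949), which was the high light library for Dnajb1.

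The chaperones also differed among the dark libraries. Their summed level was 179 and 216 CPM in dark replicates 1 and 2, which have the highest length index, and 597 and 724 CPM in dark replicates 3 and 4, against 799 to 1471 CPM after light. Hspa8, the constitutive Hsp70 gene, named after its values were seen, had 15.6 and 19.1 CPM in dark replicates 1 and 2 but 75.2 and 121 CPM in replicates 3 and 4, next to 88.3 to 245 CPM after light (log2 1.56 ± 0.54 SE, adjusted p = 0.263). With the length index as a covariate 4 chaperones passed, and without dark replicates 1 and 2 together none did.

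Of the 42 raised genes outside the lists, those named in this and the next paragraph were picked after their values were seen. Baiap2, which encodes the actin regulator IRSp53 of dendritic spines, had 166, 174, 188 and 239 CPM in the dark and 539, 461, 463 and 449 CPM after light. The light libraries were nearly level and all well above the dark ones (2.49-fold, log2 1.32 ± 0.26 SE, adjusted p = 0.00755). Rheb, the small GTPase that activates mTORC1, rose 2.37-fold from 29.0 to 45.4 CPM in the dark to 59.6 to 117 CPM after light (log2 1.25 ± 0.26 SE, adjusted p = 0.00954). Its adjusted p was 0.0854 without dark replicate 1 and 0.0556 without light replicate 1. Stmn4, a stathmin that binds tubulin, rose 2.65-fold (log2 1.41 ± 0.30 SE, adjusted p = 0.00954, and 0.0908 and 0.0559 without dark replicates 2 and 3).

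The noncoding gene 1700016P03Rik spans chr11:75172560-75177633 on the plus strand and contains the hairpins of 2 neuronal miRNAs. It had 25.3, 22.4, 17.5 and 23.98 CPM in the dark and 94.5, 150, 95.9 and 134 CPM after light, with no overlap (5.32-fold, log2 2.41 ± 0.50 SE, adjusted p = 0.00954, and 0.063 and 0.053 without dark replicates 2 and 3). Ovca2 overlaps it on the other strand. The mature sequences from RefSeq (GRCm38.p6) are shown because this transcript is their host, with the seed, bases 2 to 8, in capitals.
mmu-miR-132-3p: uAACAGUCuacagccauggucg
mmu-miR-212-3p: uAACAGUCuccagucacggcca
mmu-miR-132-5p: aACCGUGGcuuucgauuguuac
mmu-miR-212-5p: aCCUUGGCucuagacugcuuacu
The 3p arms of miR-132 and miR-212 share the seed AACAGUC, and the 5p arms have seeds of their own. Libraries primed on poly(A) report the host transcript, and the mature miRNAs were not measured.

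The 10 lowered genes were fewer and shared no list. Akap7, an anchoring protein of protein kinase A, had 119, 105, 82.5 and 76.5 CPM in the dark and 46.1, 34.9, 28.7 and 48.1 CPM after light. It was the lowered gene that passed in all 8 single-library omissions (2.42-fold lower, log2 -1.28 ± 0.26 SE, adjusted p = 0.00763). Lrrc3b, a leucine-rich repeat membrane protein, had 112, 100.3, 89.3 and 94.2 CPM in the dark and 35.2, 23.7, 42.7 and 49.1 CPM after light (log2 -1.40 ± 0.29 SE, adjusted p = 0.00954, and 0.0663 without light replicate 2). Zkscan16, a zinc finger gene, had 24.3, 40.9, 35.7 and 35.8 CPM in the dark and 5.25, 0.969, 8.05 and 12.4 CPM after light (log2 -2.39 ± 0.50 SE, adjusted p = 0.00954). The groups of all 3 genes were separate, but the Zkscan16 adjusted p was 0.0588 without the library labelled dark replicate 2 and 0.0572 and 0.0547 without light replicates 1 and 2.

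Cntn1, which encodes the axonal adhesion protein contactin, had 729, 687, 517 and 471 CPM in the dark and 360, 367, 333 and 373 CPM after light. The light values were nearly equal, and dark replicates 1 and 2, those of high length index, were the high ones (1.68-fold lower, log2 -0.75 ± 0.16 SE, adjusted p = 0.0127). Its adjusted p was 0.127 and 0.119 without dark replicates 1 and 2 and 0.0544 without light replicate 3. Prr16 had the same order of dark libraries, with 474, 443, 309 and 281 CPM against 156, 145, 209 and 180 CPM after light (log2 -1.13 ± 0.26 SE, adjusted p = 0.0278). It was not called without dark replicates 1 or 2 (adjusted p = 0.16 and 0.145) or light replicates 1, 2 or 4 (0.116, 0.112 and 0.0702).

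Pgr, the progesterone receptor gene, Arsb, a lysosomal sulfatase, and Upp2, a uridine phosphorylase, had log2 changes of -1.44 ± 0.34, -0.89 ± 0.22 and -1.12 ± 0.28 (SE) with adjusted p of 0.0289, 0.0419 and 0.0454. Each of these calls was lost on leaving out any of 5 or 6 libraries. The Pgr adjusted p reached 0.157 without dark replicate 1 and was also above the threshold without dark replicates 2 and 3 and light replicates 2, 3 and 4. That of Arsb reached 0.231 without light replicate 2 and was also above it without dark replicates 1, 2 and 3 and light replicate 4. That of Upp2 reached 0.259 without dark replicate 1 and was also above it without the library labelled dark replicate 2 and light replicates 1, 2 and 3. Upp2 was the lowered gene whose groups overlapped, with 175 CPM in dark replicate 3 and 181 CPM in light replicate 4.

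Among 21 circadian clock genes none passed, the median log2 change was 0.03, and the smallest p belonged to Per1, a period gene with CREB sites. It had 39.1, 48.9, 61.0 and 68.6 CPM in the dark and 165, 91.7, 104 and 161 CPM after light, without overlap (log2 1.26 ± 0.34 SE, adjusted p = 0.0779). Rorb, also a layer 4 marker, had the next smallest p, with a log2 difference of -1.07 ± 0.30 SE (adjusted p = 0.106, and 0.0332 without dark replicate 4). The core oscillator genes Clock and Arntl, named after their values were seen, had log2 differences of -0.18 ± 0.25 SE (adjusted p = 0.888) and -0.12 ± 0.23 SE (adjusted p = 0.935).

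Igf1, the gene whose enhancers the line was made to delete, had 24.3, 27.6, 15.2 and 5.90 CPM in the dark and 22.96, 0, 0 and 15.8 CPM after light. The libraries overlapped and the log2 difference was -0.91 ± 1.15 SE (adjusted p = 0.871). Since these animals received inactive dCre, the enhancers were not targeted. Of 14 IGF signalling genes tested none passed, with a median of 0.02. The smallest p was that of Irs2, an adaptor of the insulin and IGF1 receptors, with 14.2, 9.99, 7.59 and 8.30 CPM in the dark and 52.9, 49.7, 29.4 and 46.1 CPM after light (log2 2.15 ± 0.57 SE, adjusted p = 0.0763). Its groups did not overlap. Grb10, an inhibitor of those receptors, was lower in all light libraries without passing (log2 -1.04 ± 0.30 SE, adjusted p = 0.119).

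The lists of excitatory synapse genes, inhibitory synapse genes and voltage-gated ion channels held no called gene. The medians were -0.20 over 23 excitatory synapse genes, -0.21 over 18 inhibitory synapse genes and -0.38 over 23 voltage-gated ion channels, against -0.01 over all genes. Gria4, an AMPA receptor subunit, had the smallest p of the first of these lists, with 1414, 1079, 745 and 741 CPM in the dark and 567, 493, 516 and 657 CPM after light (log2 -0.83 ± 0.22 SE, adjusted p = 0.0731, and 0.0462 and 0.0286 without dark replicates 3 and 4). Kcnq5, a potassium channel gene, had 2357, 2039, 1401 and 1105 CPM in the dark and 897, 1010, 948 and 1197 CPM after light (log2 -0.77 ± 0.24 SE, adjusted p = 0.165). In both, dark replicates 1 and 2 were the 2 highest libraries, as for the length index. With that index as a covariate the log2 differences were -0.49 for Gria4 and -0.31 for Kcnq5.

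**Figure D4:**
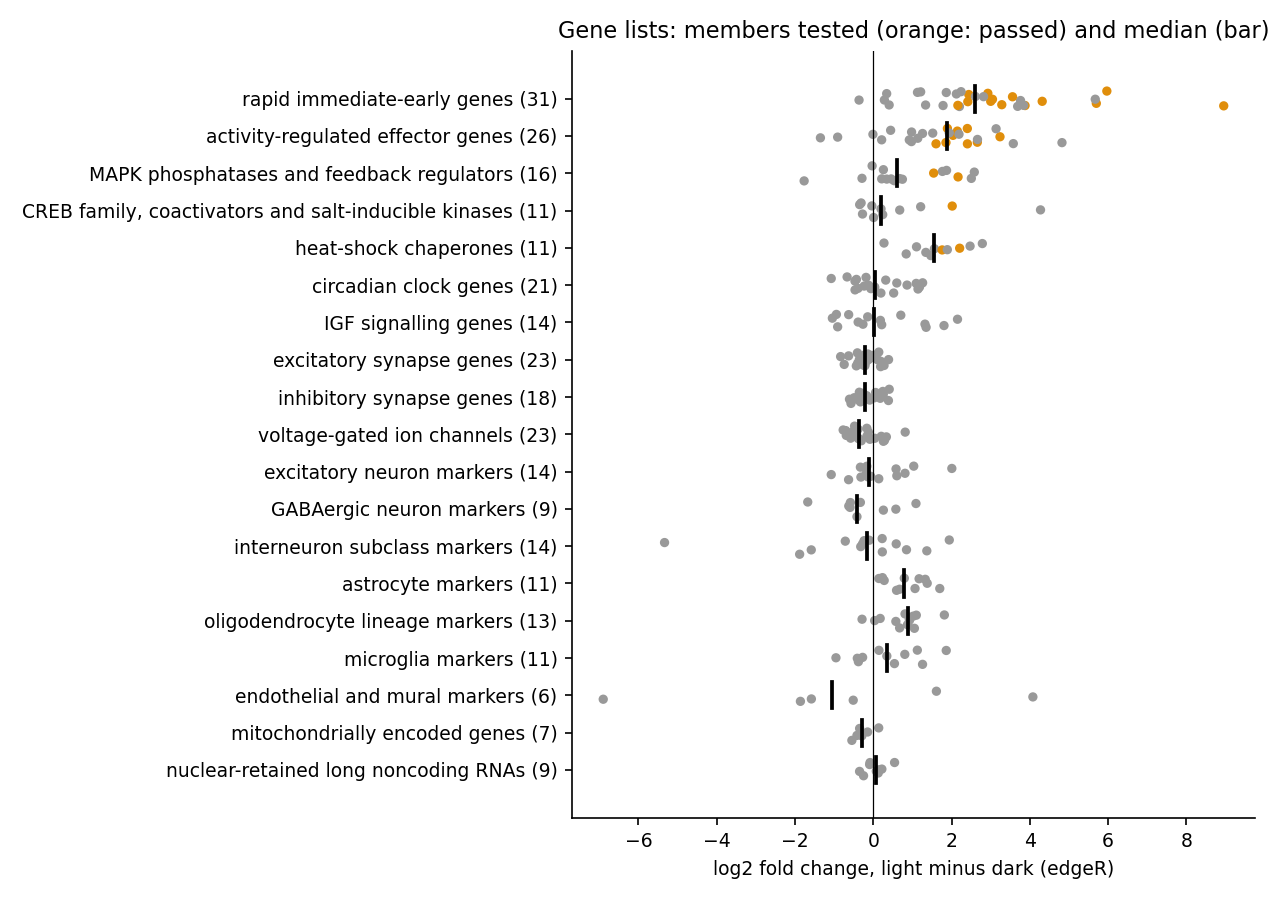
Log2 fold change (light minus dark, edgeR) of the tested members of 19 gene lists, with the number tested in brackets, the list median as a black bar and genes that passed in orange. Passing genes occur in 5 lists, immediate-early genes (13), effectors (9), MAPK regulators (2), chaperones (2) and the CREB and salt-inducible kinase list (1).

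Markers showed what the sorted nuclei contained. Excitatory neuron markers summed to 2150 to 2896 CPM in the dark and 2080 to 2397 CPM after light, GABAergic markers to 1120 to 3231 and 997 to 1602 CPM, and microglia markers to 211 to 422 and 162 to 453 CPM. The long genes Erbb4 and Adarb2 dominated the GABAergic sum, with 30577 and 20520 counts, against 1981 for Gad1 and 1145 for Gad2. That sum was highest in dark replicates 1 and 2, those of highest length index, at 3044 and 3231 CPM. It is therefore no measure of the number of GABAergic nuclei. Endothelial and mural markers were near 0, at 0.484 to 15.1 CPM in all 8 libraries. Astrocyte markers summed to 842 to 945 CPM in the dark and 1084 to 1651 CPM after light, without overlap. All 11 astrocyte markers tested had a positive log2 change, against 48.8% of all genes, none passed, and their median was 0.79. Oligodendrocyte lineage markers summed to 611 to 1462 CPM in the dark and 832 to 3530 CPM after light, with the highest value in light replicate 2, a median of 0.87 and no gene that passed. In pooled nuclei, fewer nuclei of a type and less RNA per nucleus cannot be told apart.

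With the summed level of astrocyte and oligodendrocyte markers as a covariate, an alternative chosen after seeing the data, 85 genes passed, 70 of them among the 79. Slc1a2, the main glutamate transporter of astrocytes, was the 1 marker of its list whose groups did not overlap, with 390, 341, 319 and 295 CPM in the dark and 670, 540, 493 and 441 CPM after light (log2 0.67 ± 0.22 SE, adjusted p = 0.19). With the length index as a covariate Slc1a2 passed (log2 0.81). Mbp, a myelin gene, had 253, 138, 213 and 286 CPM in the dark and 353, 858, 328 and 260 CPM after light (log2 1.02 ± 0.42 SE, adjusted p = 0.367). Vip, the marker of the interneurons that carry the virus, had 11.9, 39.2, 31.1 and 36.9 CPM in the dark. After light it had 109 CPM in replicate 1, 0 in replicates 2 and 3 and 1.01 CPM in replicate 4 (log2 -0.10 ± 1.51 SE, adjusted p = 1.0).

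The same light contrast was set beside 4 other sets of libraries: total nuclei of line E1 and of line E23 with dCre, total nuclei of E123 with active Cre, and VIP nuclei of E123 with dCre. In the comparison with VIP nuclei, total and VIP libraries of the same number were not treated as pairs. None of the differences between light responses passed, gene by gene, in edgeR's quasi-likelihood test, and 0 of 21213 or 22926 genes (0.0%) were called in each of the 4 comparisons. At an unadjusted p under 0.05 there were 1640 genes for E1, 1418 for E23, 1005 for E123 with Cre and 959 for VIP nuclei. Read alone, the light contrast called 781 genes (3.68%) in E1 control, 470 higher (2.22%) and 311 lower (1.47%). It called 38 (0.179%) in E23 control, 31 higher (0.146%) and 7 lower (0.033%). In E123 with Cre it called 12 (0.0566%), 10 higher (0.0471%) and 2 lower (0.00943%), and in VIP nuclei of E123 control 11 (0.048%), 10 higher (0.0436%) and 1 lower (0.00436%). These counts are not comparable as sizes of response. E1 control had 5 light and 3 dark libraries, E123 with Cre 4 and 3, and the other sets 4 and 4. The VIP contrast came from the fit of all 96 libraries. Of the 69 genes raised here, 64 (92.8%) had a positive log2 change in E1, 62 (89.9%) in E23, 67 (97.1%) in E123 with Cre and 68 (98.6%) in VIP nuclei, against 46.8% to 50.6% of all genes. Total and VIP libraries of the same number had the same sex by their counts, dark replicate 2 included. They may come from the same animals, so the VIP nuclei may not be an independent set. The 69 had been selected in E123 control, so their median log2 of 1.76 there is not comparable with the 0.94 to 1.24 elsewhere.

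Some genes are given side by side. Nr4a1 had log2 changes of 1.70 ± 0.34 in E1, 2.54 ± 0.32 in E23, 2.89 ± 0.37 in E123 with Cre and 2.09 ± 0.37 in VIP nuclei (SE), near the 2.44 seen here. Nr4a3, at 3.28 ± 0.59 SE here, had -0.02 ± 0.56 SE in E1 (adjusted p of the difference 0.413). Nefl, at 2.35 ± 0.42 SE here, had -0.00 ± 0.40 SE in E23 (adjusted p of the difference 0.446), and Stmn4, at 1.41 ± 0.30 SE, had -0.41 there (adjusted p of the difference 0.284, the smallest of that comparison). Pcsk1 had 0.88 ± 0.34 SE in VIP nuclei, and the difference from total nuclei, 1.51 ± 0.49 SE, had an adjusted p of 1.0. None of these differences passed.

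The immediate-early list gave 13 raised genes here, 9 in E1, 7 in E23, 4 in E123 with Cre and 3 in VIP nuclei. In the same order, the raised shares of all genes were 0.325%, 2.22%, 0.146%, 0.0471% and 0.0436%. These counts too are not comparable as sizes of response. The list medians were 2.61, 1.70, 1.77, 2.29 and 2.16, with no lowered gene in any. For the lowered genes, Akap7 had log2 changes of -0.39 in E1, -0.32 in E23, -0.68 in E123 with Cre and -0.60 in VIP nuclei, and Lrrc3b -0.47, -0.31, -0.09 and -0.58. Prr16 had -1.13 in E1 (adjusted p = 0.0127) and -0.04 in E23. Of the 10 lowered genes, 10 were below 0 in E1, 9 in E23, 10 in E123 with Cre and 9 in VIP nuclei, against 48.5% to 51.3% of all genes.

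**Figure D5:**
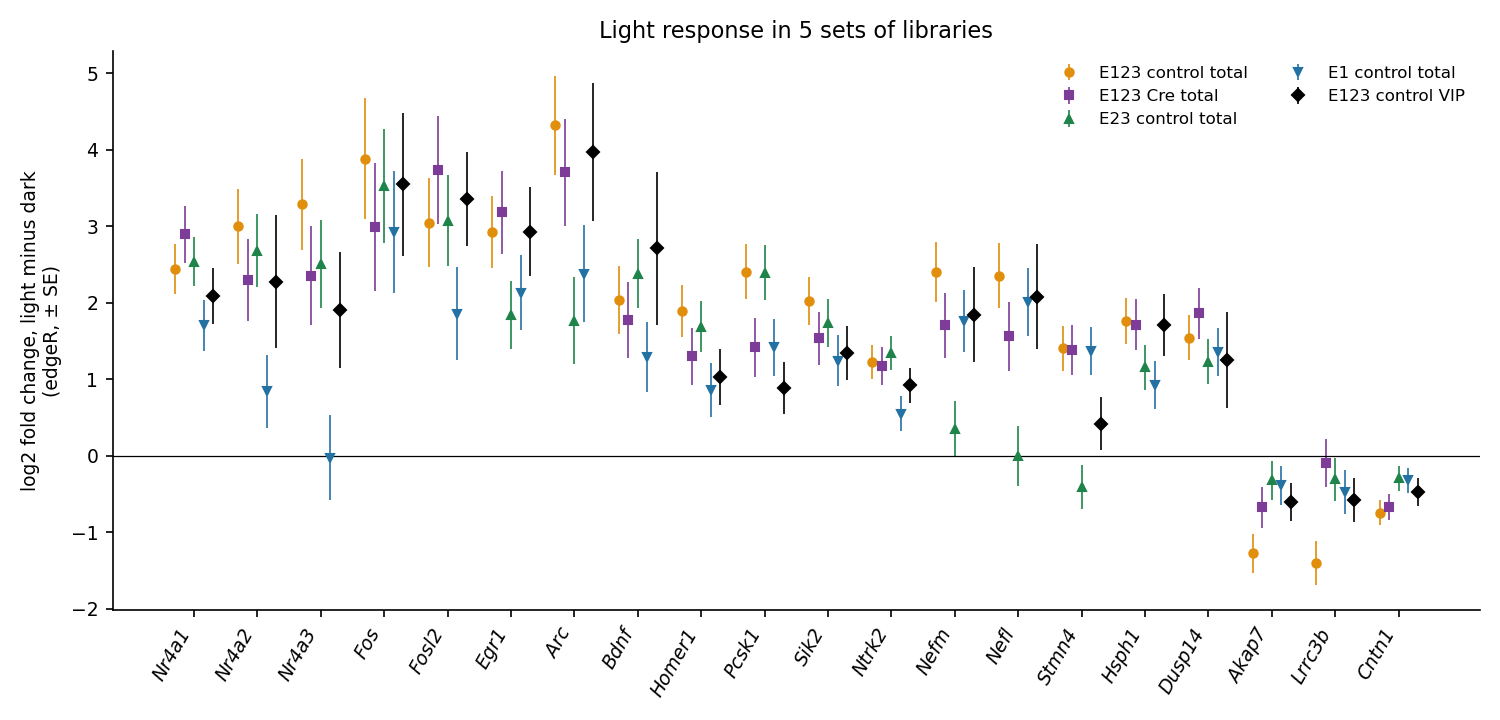
Log2 fold change (light minus dark, edgeR, ± SE) of 20 genes in 5 sets of libraries, with VIP nuclei from a fit of all 96 libraries and the others from a fit of the 48 total-nuclei libraries. For most raised genes all 5 sets lie above 0, while Nr4a3 in E1 and Nefl in E23 lie near 0 and Stmn4 in E23 lies below 0, at -0.41. No difference from E123 control passed.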

How the data were processed

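Raw counts per gene and library are the deposited values, made by the authors with cutadapt 1.18, STAR 2.5.3a and HOMER 4.9.1 on mm10, per the submitters' processing notes. The annotation release and the strand setting of the counting are not given in the sources used here. Per the labels' protocols, cDNA was primed on poly(A) and amplified for 17 PCR cycles and made into Nextera XT libraries, a kit that does not mark strand, without molecular identifiers, so intervals and floors cover counting error only. Of 55335 gene identifiers, 55154 were matched to GENCODE vM21, and the 181 others held 0.0225% of the counts.

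Genes were tested with edgeR 4.0.16 in R 4.3.3 (quasi-likelihood F test, TMM scaling, default filter on low counts, robust spread, 1 coefficient per group) on the 48 total-nuclei libraries, which share 1 spread estimate per gene. The comparison with VIP nuclei used all 96. The SE of a log2 fold change was taken as its size over the root of the F value. CPM use TMM library sizes, and no library was dropped or imputed. The biological coefficient of variation was 0.679. On simulated counts the light contrast recovered 36 of 100 genes changed 4-fold and 90 of 100 changed 8-fold. The simulation gave every gene the same spread, below the fitted one, and changed no gene of low level. Recovery in the real data may therefore be lower. The labels call the replicates biological, without naming animals. The members and the gene lists were chosen with earlier results of these data known. Named genes are 10 fixed genes, up to 12 in each direction by p, and per list up to 4 that passed or the 2 of smallest p. Others are said to be picked afterwards. DESeq2 1.42.0, other scalings, filters, covariates and omitted libraries were tried as alternatives.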

Additional observations from a re-analysis of the deposited data

Results flagged for a closer look

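Within the 4 libraries of a group, a value was picked out when its gap to the nearest other library took up more of the group's range than Dixon's 95% limit for 4 values allows. Of 142 groups of 4 tested, 12 were picked out, and chance alone picks out about 1 in 20. Among dark libraries these were Npas4 at 6.83 CPM in replicate 3, Grb10 at 65.8 CPM in replicate 4, Chat, a cholinergic marker, at 4.07 CPM in replicate 2, and the summed microglia markers at 422 CPM in replicate 3. Among light libraries, replicate 2 was low for Nefm at 46.0 CPM and Spry2 at 19.9 CPM, and high for Mbp at 858 CPM and for the summed mitochondrially encoded genes at 1392 CPM. Light replicate 1 was high for Vip at 109 CPM and Dnajb1 at 58.6 CPM, replicate 3 for the endothelial marker Ly6c1 at 1.75 CPM, and replicate 4 for Homer1 at 822 CPM. The Vip value is that of 1 library of pooled nuclei, next to 0, 0 and 1.01 CPM in the other light libraries.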

How the results depend on the processing

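The 69 higher and 10 lower genes, 79 in all, became 272 with DESeq2's Wald test (192 higher, 80 lower), 267 with no filter on low counts (213 and 54), 190 with the length index as a covariate (168 and 22), 28 from the 8 libraries alone (27 and 1) and 7 without dark replicates 1 and 2 together (7 and 0). Leaving out 1 library gave 24 to 145 genes, 22 to 118 higher and 2 to 27 lower. DESeq2 size factors (83), total counts (94), sex by label (93), sex by Xist and Y-linked counts (107, of which 88 higher and 19 lower) and the glial marker level (85) kept the count of all calls within 1.5 times. Nr4a1, Pcsk1, Sik2 and Homer1 passed in every alternative run. No named value changed sign where it had been called. The replicate numbers are not stated to mark shared animals, and light and dark libraries of the same number deviated with r of -0.293 to 0.0491, none best with its own number. The replicate block gave 87 genes, 76 higher and 11 lower. Total and VIP libraries of the same number deviated together in the dark (r of 0.328 to 0.544) but under 0.1 in the light (0.0523 to 0.0949), and the replicate block left the comparison with VIP nuclei at 0 genes. The differences between light responses, 0 in each comparison, became 59 for E1, 92 for E23 and 6 for E123 with Cre with no filter, 8 for E1 without dark replicates 1 and 2, and 0 to 2 for E1 when 1 library was left out. The cause of these shifts was not tested. In simulated counts, with a smaller spread than the fitted one, 36 of 100 4-fold changes were recovered, so such changes and smaller ones are often missed.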
